A study of Mus musculus with 6 samples.

Results

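The genes described here make, take up, move and esterify cholesterol, in mouse livers with and without overexpression of the transcription factor TFEB. They are 29 listed genes, chosen by name for their role, and 25 of them had at least 1 of the 51 probe sets that the array annotation assigns to exactly 1 of these genes, among 12393 genes with such a probe set. Acat2, Insig1, Soat1 and Soat2 were not analysed here. Livers at postnatal day 9 gave 3 wild-type and 3 transgenic samples of whole-liver RNA, each on 1 array, which the labels call biological replicates without saying whether animals were pooled. The transgenic mice came from a cross between a line with a conditional Tcfeb allele (Tcfeb is the older name of Tfeb) and the Alb-Cre line, in which the albumin promoter, active in hepatocytes, drives Cre recombinase. The labels do not say whether the wild-type mice carried the allele or Cre without the other. The comparison asks how liver TFEB overexpression changed these genes.

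Cells build cholesterol from acetyl-CoA through mevalonate and isoprenoid pyrophosphates to squalene, which is closed into lanosterol and trimmed to cholesterol. When membranes of the endoplasmic reticulum are poor in cholesterol, SCAP escorts SREBP-2 to the Golgi, where it is cleaved into an active transcription factor that raises most genes of the route, and INSIG proteins hold the complex back when sterol is plentiful. The liver also takes up lipoprotein cholesterol, releases it from lysosomes through NPC1 and NPC2, and secretes LCAT, which esterifies cholesterol in plasma. TFEB is a regulator of lysosomal and autophagy genes.

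All levels are log2 expression values of 1 probe set, the brightest of each gene, and are not compared between genes. Each difference is the transgenic mean less the wild-type mean, given with its standard error (SE) from a limma fit over all genes, and a gene was called when its Benjamini-Hochberg adjusted p over all genes was under 0.05. Medians over probe sets lay between 6.74 and 6.76 in wild type and between 6.78 and 6.79 in transgenic liver. Tfeb read 6.91, 6.63 and 6.58 in wild type and 6.52, 6.61 and 6.36 in transgenic liver, a difference that did not pass (adjusted p = 0.168), and since the labels do not say which part of the gene the transgene carries, this probe set does not check the labels. Transgenic replicate 1 alone had the pattern of a male, with Xist at 5.58 against 13.03 to 13.19 on the other arrays. Bacterial control RNAs (bioB, bioC and bioD) read lower in transgenic arrays on 14 of 14 probe sets (median difference -0.37). Scaling to these RNAs is an alternative scale and does not measure the amount of RNA per sample or per cell. With arrays scaled to those RNAs the median difference of all genes moved from -0.04 to 0.33, and calls in the higher direction went from 49.4% to 91.5% of calls, so every direction given here holds for the deposited scale unless said otherwise.

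Among the 25 measured genes, 6 rose, 7 fell and 12 did not pass. Those that rose were the synthesis enzymes Fdps, Sqle, Mvd, Lss and Nsdhl and the lysosomal cholesterol carrier Npc2. Those that fell were the enzymes Tm7sf2, Ebp and Sc5d, the SREBP regulators Insig2 and Scap, the HDL receptor gene Scarb1 and Lcat. The shares called, 24% higher and 28% lower, lie near the 19.9% and 20.4% of all 12393 genes called in each direction. The median difference was 0.09 for these genes against -0.04 for all genes. Arrays of the groups did not overlap for 7 genes with transgenic above and 7 with transgenic below, 28% each, against 25.6% and 28.1% of all genes. With scaling to the bacterial RNAs, 16 rose and 4 fell, while 56.6% of all genes were called higher and 5.25% lower. The 4 were Tm7sf2, Insig2, Scarb1 and Lcat, while Ebp (-0.10) and Scap (-0.14) no longer passed and Sc5d changed sign (0.07).

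**Figure D1:**
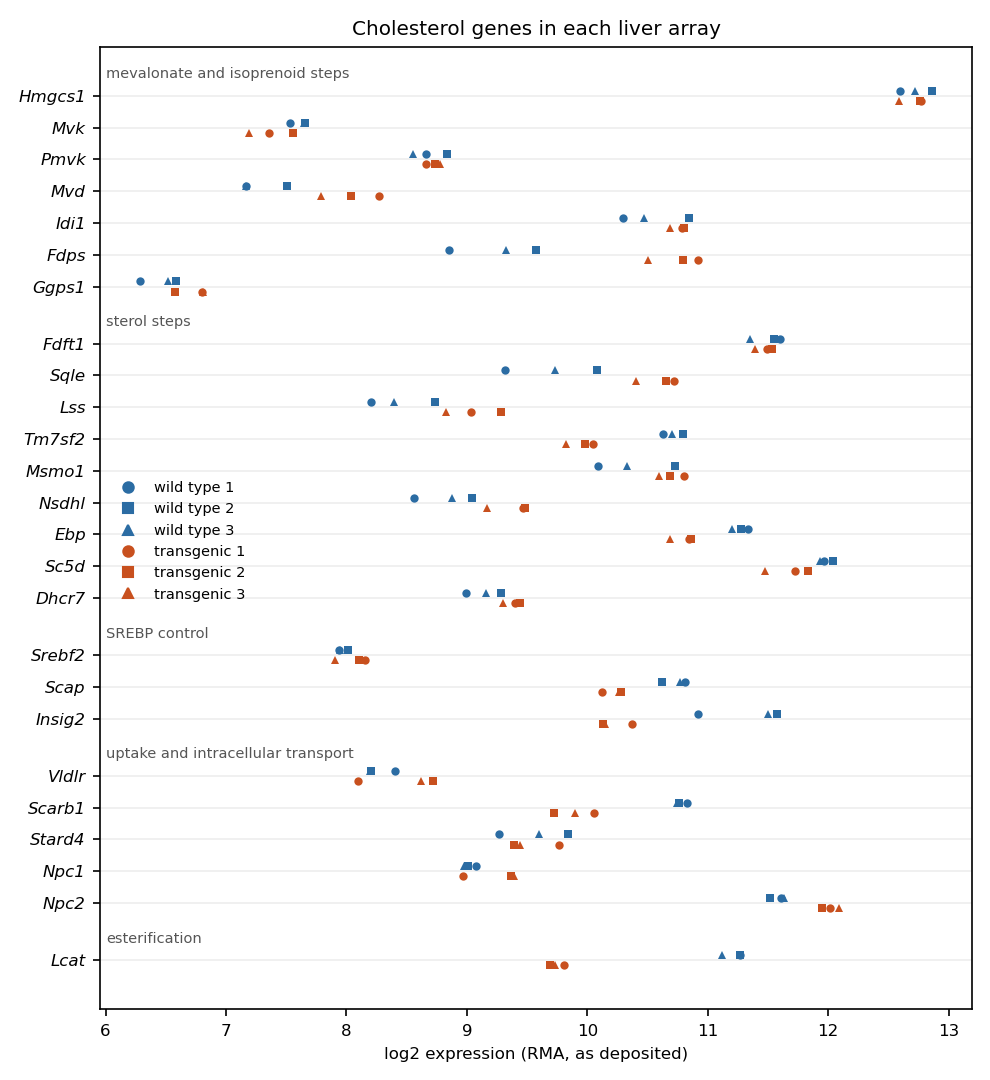
Log2 expression of the 25 measured genes (horizontal axis) in each of the 3 wild-type (blue) and 3 transgenic (orange) arrays, with a marker shape for each replicate number and genes ordered by role. The groups stand apart for Fdps, Insig2, Scarb1, Lcat and Npc2, among others, and overlap for Hmgcs1, Pmvk, Fdft1 and Stard4.

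Of 7 measured genes of the mevalonate and isoprenoid steps, 2 rose, 0 fell and 5 did not pass. The share that rose, 28.6%, stood against 19.9% of all genes, and 20.4% of all genes fell. Fdps makes farnesyl pyrophosphate, from which sterols and other isoprenoids branch, and it read 8.85, 9.58 and 9.33 in wild type and 10.92, 10.79 and 10.50 in transgenic liver. Each transgenic array was above each wild-type array, a rise of 1.49 (SE 0.19, 2.80-fold, adjusted p = 0.000692), and 1.15% of all genes had a more positive difference. Its second probe set read 2.59 to 2.86 on all arrays, a dim level, and was not called. Mvd, the decarboxylase that yields isopentenyl pyrophosphate, read 7.17, 7.50 and 7.16 in wild type and 8.27, 8.04 and 7.79 in transgenic liver. The groups did not overlap, and the rise was 0.75 (SE 0.14, 1.69-fold, adjusted p = 0.00486). Its other probe set gave 0.58, with overlapping groups and no call (adjusted p = 0.0555, tested with each probe set on its own).

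The other 5 genes of these steps spanned differences from -0.24 to 0.27. Mvk, the kinase that first phosphorylates mevalonate, had the lowest, with 7.53, 7.65 and 7.65 in wild type and 7.36, 7.56 and 7.19 in transgenic liver (difference -0.24, adjusted p = 0.0952). Ggps1, which makes geranylgeranyl pyrophosphate for prenylated proteins, had the highest, with 6.29, 6.58 and 6.52 in wild type and 6.80, 6.58 and 6.81 in transgenic liver (difference 0.27, adjusted p = 0.0754). Both pairs of groups overlapped. All 4 probe sets of Ggps1 gave a positive difference, and their mean passed (0.26, adjusted p = 0.0254). Without transgenic replicate 2, Mvk passed as lower (-0.34, adjusted p = 0.0345).

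Hmgcs1, the synthase that forms HMG-CoA, did not follow Fdps. It read 12.60, 12.87 and 12.72 in wild type and 12.77, 12.76 and 12.59 in transgenic liver, a difference of -0.02 with a 95% confidence interval from -0.23 to 0.19. The differences of its 4 probe sets lay between -0.10 and 0.04. Pmvk, the second kinase of the route, differed by 0.04 (interval -0.16 to 0.25). Idi1, which interconverts the isoprenoid building blocks, read 10.29, 10.85 and 10.47 in wild type against 10.79, 10.80 and 10.69, a difference of 0.22 that did not pass (adjusted p = 0.222). Wild-type replicate 2 was its highest array of all, and without that array Idi1 was called higher (0.37, adjusted p = 0.023).

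Of the 9 sterol enzymes 3 were higher and 3 lower (33.3% each, against 19.9% and 20.4% of all genes), and 3 did not pass. Sqle, the squalene epoxidase that controls entry into the sterol steps, read 9.31, 10.08 and 9.73 in wild type and 10.72, 10.66 and 10.40 in transgenic liver. All transgenic arrays lay above all wild-type arrays, and the rise was 0.88 (SE 0.19, 1.84-fold, adjusted p = 0.00772). Lss, which closes the squalene epoxide into lanosterol, read 8.21, 8.73 and 8.40 in wild type and 9.03, 9.28 and 8.82 in transgenic liver. It rose by 0.60 (SE 0.16, 1.52-fold, adjusted p = 0.0195), but leaving out wild-type replicate 3 ended the call (adjusted p = 0.0547), as did leaving out transgenic replicate 2 (adjusted p = 0.0626). Its second probe set, with overlapping groups, gave 0.30, and its mean over 3 sets 0.27, neither called. Nsdhl, a dehydrogenase that removes methyl groups from the sterol ring, read 8.56, 9.04 and 8.88 in wild type and 9.47, 9.48 and 9.16 in transgenic liver. It rose by 0.55 (SE 0.14, 1.46-fold, adjusted p = 0.0174), but did not pass when transgenic replicate 1 (adjusted p = 0.0559) or 2 (adjusted p = 0.0603) was left out.

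The 3 sterol enzymes that fell were Tm7sf2, Ebp and Sc5d. Tm7sf2, a sterol reductase, read 10.63, 10.79 and 10.70 in wild type and 10.05, 9.98 and 9.83 in transgenic liver. Its groups were far apart relative to their spread, and it fell by 0.76 (SE 0.08, 1.69-fold lower, adjusted p = 0.000382). Ebp, the isomerase that shifts the ring double bond, read 11.33, 11.28 and 11.20 against 10.84, 10.86 and 10.69. Again no arrays overlapped, and it fell by 0.47 (SE 0.08, adjusted p = 0.00242). Sc5d, the desaturase that follows, read 11.97, 12.04 and 11.93 against 11.72, 11.83 and 11.47. Its fall of 0.30 (SE 0.10, adjusted p = 0.0446) was small, and it passed in only 1 of the 6 fits that each left out 1 array, the one without transgenic replicate 2 (adjusted p 0.0308 to 0.124 over the 6).

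Of the 3 sterol enzymes that did not pass, Msmo1, the oxidase that starts the removal of methyl groups, had the highest difference. It read 10.09, 10.73 and 10.33 in wild type and 10.80, 10.69 and 10.59 in transgenic liver, 0.31 apart (adjusted p = 0.142), and its wild-type arrays spanned 0.64. Fdft1, the squalene synthase, had the lowest, with 11.60, 11.55 and 11.35 against 11.49, 11.54 and 11.39, a difference of -0.03 (interval -0.23 to 0.17). Its groups overlapped. A dim probe set of Fdft1 at 4.84 to 5.65 was called lower on its own (-0.41, adjusted p = 0.0439, each probe set tested on its own), and the other dim set gave -0.27 without a call, while the 2 bright sets gave -0.03 and -0.00. Dhcr7, a reductase that completes cholesterol, read 8.995, 9.28 and 9.16 against 9.40, 9.44 and 9.30, with no overlap and a difference of 0.24 that missed the threshold (adjusted p = 0.0707). Without wild-type replicate 2 both Msmo1 (0.49, adjusted p = 0.017) and Dhcr7 (0.31, adjusted p = 0.0433) were called higher.

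**Figure D2:**
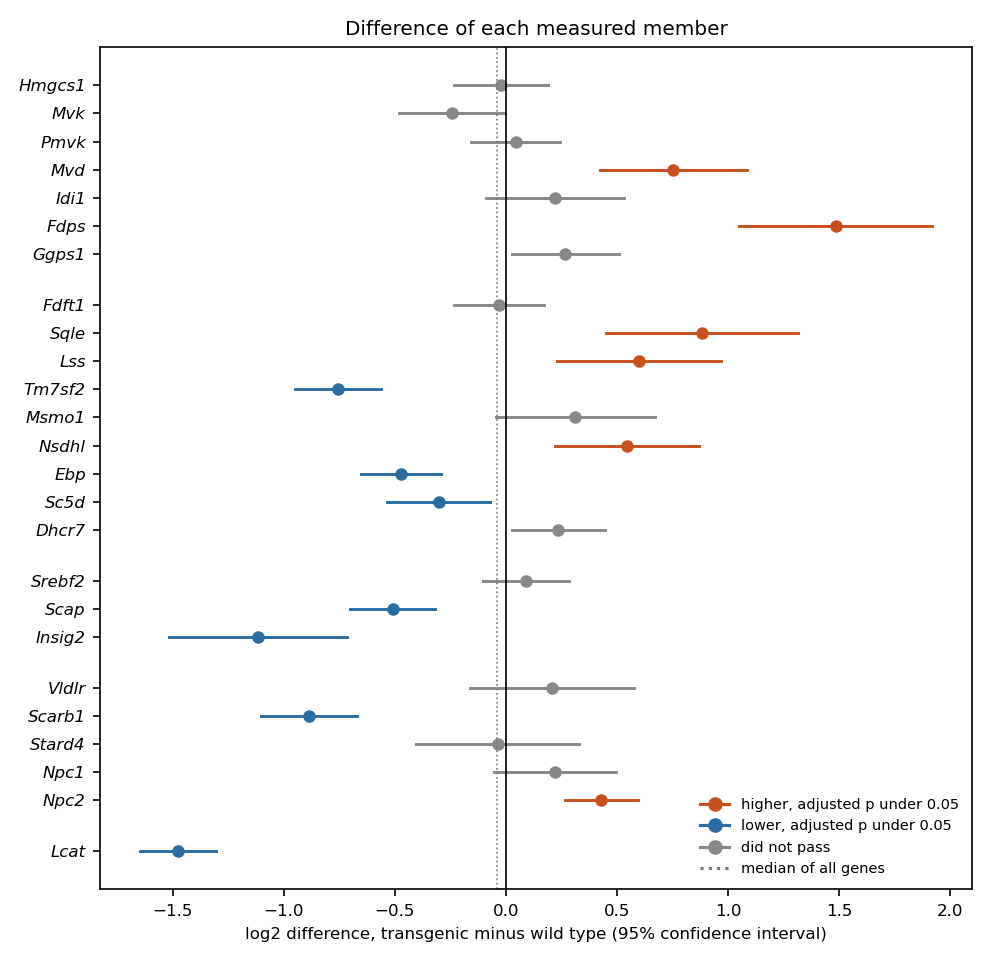
Log2 difference, transgenic minus wild type (horizontal axis), with its 95% confidence interval for each of the 25 measured genes in the order of the route, orange for genes called higher, blue for genes called lower and grey for genes that did not pass. Within the synthesis enzymes Fdps (1.49) and Tm7sf2 (-0.76) mark the ends, and Lcat has the lowest value of all (-1.48).

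Promoter sequences were read for the synthesis enzymes that rose. Mvd, Lss and Nsdhl, 3 of the 5, have an entry in the RefSeq promoter table (build GRCm38.p6), each 250 bases before to 50 bases after the transcription start, on the gene's strand. They lie at chr8:122443373-122443672 on the minus strand (Mvd), chr10:76531355-76531654 on the plus strand (Lss) and chrX:72918271-72918570 on the plus strand (Nsdhl). Capitals mark the CCAAT box, bound by NF-Y, and the GC box GGGCGG, bound by Sp1, on either strand.
Mvd: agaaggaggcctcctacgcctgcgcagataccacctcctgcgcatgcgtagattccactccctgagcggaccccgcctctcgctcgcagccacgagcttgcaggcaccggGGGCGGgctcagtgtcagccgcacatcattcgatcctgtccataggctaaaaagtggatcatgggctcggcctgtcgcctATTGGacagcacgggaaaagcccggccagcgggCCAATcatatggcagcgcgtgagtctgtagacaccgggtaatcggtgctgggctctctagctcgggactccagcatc
Lss: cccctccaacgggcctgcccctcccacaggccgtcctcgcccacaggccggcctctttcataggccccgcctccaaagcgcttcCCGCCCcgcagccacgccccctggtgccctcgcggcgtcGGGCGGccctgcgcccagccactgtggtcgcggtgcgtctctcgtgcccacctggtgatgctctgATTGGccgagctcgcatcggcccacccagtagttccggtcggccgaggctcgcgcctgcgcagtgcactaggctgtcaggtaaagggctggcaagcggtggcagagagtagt
Nsdhl: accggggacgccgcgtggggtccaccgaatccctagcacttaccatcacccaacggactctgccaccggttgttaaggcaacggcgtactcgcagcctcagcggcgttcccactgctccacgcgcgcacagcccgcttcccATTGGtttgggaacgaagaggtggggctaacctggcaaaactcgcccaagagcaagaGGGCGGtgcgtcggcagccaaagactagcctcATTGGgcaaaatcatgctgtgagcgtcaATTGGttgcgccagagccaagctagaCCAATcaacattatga

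The promoter of Mvd held 2 CCAAT boxes and 1 GC box, that of Lss 1 and 2, and that of Nsdhl 4 and 1. Both boxes were also found for Tm7sf2, Ebp and Sc5d, which fell, and for Hmgcs1 and Mvk, which did not pass. Across all 29 listed genes, 22 had an entry, some with several starts, and a gene was counted when any of its promoters held a match on either strand. Of the 22, 19 were measured here and Acat2, Insig1 and Soat1 were not, whereas the shares set beside them cover tested genes only. A CCAAT box was found for 20 of 22 (90.9%), against 42.3% of the 9887 tested genes with an entry. A GC box was found for 19 of 22 (86.4%), against 61.0%. Both are shares of matches by letters only, and the CCAAT share is the one that lies furthest from the other genes.

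The E-box CACGTG was found for 4 of 22 (18.2%, against 10.8%), namely Dhcr7, Insig1, Sc5d and Scap. None of the 22 held TCACGTGA, the same E-box with the flanks typical of TFEB sites, which 1.76% of tested genes hold and which always contains CACGTG. At so low a share, 22 genes are too few for a lack of matches to tell them from other genes. A core of the sterol regulatory element, TCACNCCAC, was found once, in Hmgcs1 at 137 to 129 bases before the start, against 1.5% of tested genes. These counts cover this short window and these letters alone.

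Among the genes that control SREBP, 0 rose and 2 of 3 fell (66.7%, against 20.4% of all genes). Insig2, which retains SCAP in the endoplasmic reticulum, read 10.92, 11.58 and 11.50 in wild type and 10.37, 10.13 and 10.15 in transgenic liver. The groups did not overlap, although wild-type replicate 1 lay 0.66 below the highest wild-type array, and Insig2 fell by 1.12 (SE 0.17, 2.17-fold lower, adjusted p = 0.00188). Its other 2 probe sets gave -1.05 and -1.13, so all 3 sets showed the fall. Scap, the escort protein itself, read 10.81, 10.62 and 10.77 against 10.12, 10.28 and 10.26. It fell by 0.51 (SE 0.08, 1.42-fold lower, adjusted p = 0.00224) with no overlap.

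Srebf2, the gene of SREBP-2, gave a result that depended on the probe set. The brighter one read 7.94, 8.01 and 7.94 in wild type and 8.16, 8.11 and 7.90 in transgenic liver, a difference of 0.09 that did not pass (adjusted p = 0.412). The other read 7.57, 7.61 and 7.65 against 7.97, 8.15 and 8.08, without overlap, and with each probe set tested on its own it was called higher (0.46, SE 0.07, adjusted p = 0.00233). Averaged over both sets Srebf2 was called higher (0.27, adjusted p = 0.0118). Tested in that way, 8 of the 51 probe sets were called higher (15.7%, against 18.7% of 20380 probe sets) and 12 lower (23.5%, against 17.6%). Of the 15 genes with over 1 probe set, 11 had differences of the same sign on every set, and 0 had sets called in both directions.

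**Figure D3:**
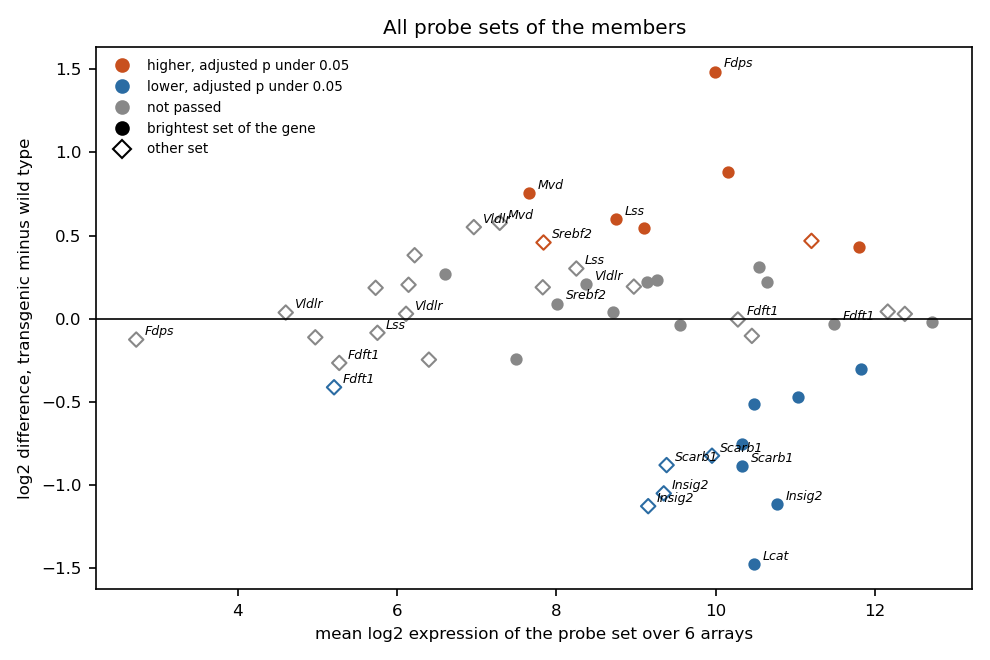
Log2 difference, transgenic minus wild type (vertical axis), against the mean log2 expression over 6 arrays (horizontal axis) for the 51 probe sets of the 25 genes, filled circles for the brightest set of a gene and open diamonds for its other sets, coloured by the call. The 3 Insig2 sets and the 3 Scarb1 sets lie together below -0.8, whereas the sets of Fdps and Srebf2 differ.

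Of 5 genes of uptake and transport 1 was higher and 1 lower (20% each, near the 19.9% and 20.4% of all genes). The other 3 did not pass. Scarb1, which takes cholesteryl ester from HDL, read 10.83, 10.76 and 10.75 in wild type and 10.05, 9.73 and 9.90 in transgenic liver. All transgenic arrays were lower on each of its 3 probe sets, and the brightest fell by 0.89 (SE 0.09, 1.85-fold lower, adjusted p = 0.000284). Npc2, the soluble lysosomal protein that hands cholesterol to NPC1, read 11.61, 11.52 and 11.64 against 12.01, 11.95 and 12.09. It rose by 0.43 (SE 0.07, 1.35-fold, adjusted p = 0.00256), and its second probe set rose by 0.47, both without overlap.

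Npc1, the membrane partner of NPC2, was not called. It read 9.07, 9.01 and 8.98 in wild type and 8.97, 9.37 and 9.39 in transgenic liver, so that transgenic replicate 1 lay with the wild-type arrays (difference 0.22, adjusted p = 0.168). Vldlr, a lipoprotein receptor that is low in normal adult liver, showed the same array apart, with 8.41, 8.20 and 8.20 against 8.10, 8.72 and 8.62 (difference 0.21, adjusted p = 0.325). The other 3 probe sets of Vldlr gave 0.55, 0.03 and 0.04, none called, and the set at 0.55 was the one used when sets of the suffixes s and x were left out (adjusted p = 0.0683). Without transgenic replicate 1, the array with the male pattern, both were called higher, Npc1 by 0.36 (adjusted p = 0.0123) and Vldlr by 0.40 (adjusted p = 0.0214). The part of the animal's sex in these values was not tested. Stard4, a cytosolic sterol carrier, read 9.27, 9.84 and 9.60 against 9.76, 9.39 and 9.44 and differed by -0.04 (interval -0.40 to 0.33).

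Lcat, the plasma cholesterol esterifying enzyme, had the largest fall of the 25 genes. It read 11.27, 11.27 and 11.12 in wild type and 9.81, 9.69 and 9.73 in transgenic liver. The groups lay over 1 log2 unit apart at their nearest arrays, and Lcat fell by 1.48 (SE 0.07, 2.78-fold lower, adjusted p = 1.22e-05), with 1.28% of all genes having a more negative difference. Hepatocytes are the main source of Lcat, and hepatocyte markers were lower too. Of 8 such markers 6 fell (75%, against 20.4% of all genes) and 0 rose. Their mean level per array was 13.34 to 13.43 in wild type and 12.76 to 12.93 in transgenic liver, though Alb read 14.87 in both groups. In whole-liver RNA, fewer cells of a type and less RNA per cell cannot be told apart, and the part of either in these falls was not tested.

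Markers of other liver cells were called as well, and the shares to set beside them are 19.9% higher and 20.4% lower of all genes. Bile duct markers were higher for 4 of 5, or 80% (mean level 6.02 to 6.97 in wild type and 8.19 to 8.51 in transgenic liver). Erythroid markers were also higher for 4 of 5 (7.38 to 7.58 against 8.04 to 8.20). Kupffer cell and macrophage markers were lower for 3 of 8, or 37.5%, and higher for 0 (10.56 to 10.86 against 10.26 to 10.57). Of 6 endothelial markers 3 fell (50%) and 1 rose (16.7%), with levels of 9.18 to 9.32 against 9.13 to 9.29. Of 6 stellate markers 2 fell (33.3%) and 1 rose (16.7%), with 9.26 to 9.30 against 9.08 to 9.39. For adipocytes 0 of 3 markers passed (5.86 to 5.95 against 5.72 to 5.95). The part of these cells in the results above was not tested.

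Within each group the synthesis enzymes shared much of their order over the arrays. Wild-type replicate 2 was the highest wild-type array for 14 of the 16 measured synthesis enzymes, against 28.4% of all genes, and wild-type replicate 1 the lowest for 11 of 16, against 34.0%. Transgenic replicate 3 was the lowest transgenic array for 14 of 16, against 36.4% of all genes. The mean over the 16 enzymes was 9.51, 9.84 and 9.63 in the wild-type arrays and 9.94, 9.94 and 9.75 in the transgenic arrays, so transgenic replicate 3 lay below wild-type replicate 2. These 16 values come from the same RNA samples and are not independent.

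The size of this spread differed between enzymes. The wild-type arrays spanned 0.77 for Sqle, 0.72 for Fdps, 0.64 for Msmo1 and 0.55 for Idi1, and 0.17 for Tm7sf2, 0.13 for Ebp, 0.13 for Mvk and 0.11 for Sc5d, which had the smallest spans. For 7 of 16 enzymes the wild-type span was larger than the difference between the groups, close to the 47.5% of all genes. Outside synthesis, wild-type replicate 1 was the lowest wild-type array for 3 of the 9 genes (Srebf2, Insig2 and Stard4) and the highest for 5 (Scap, Vldlr, Scarb1, Npc1 and Lcat).

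**Figure D4:**
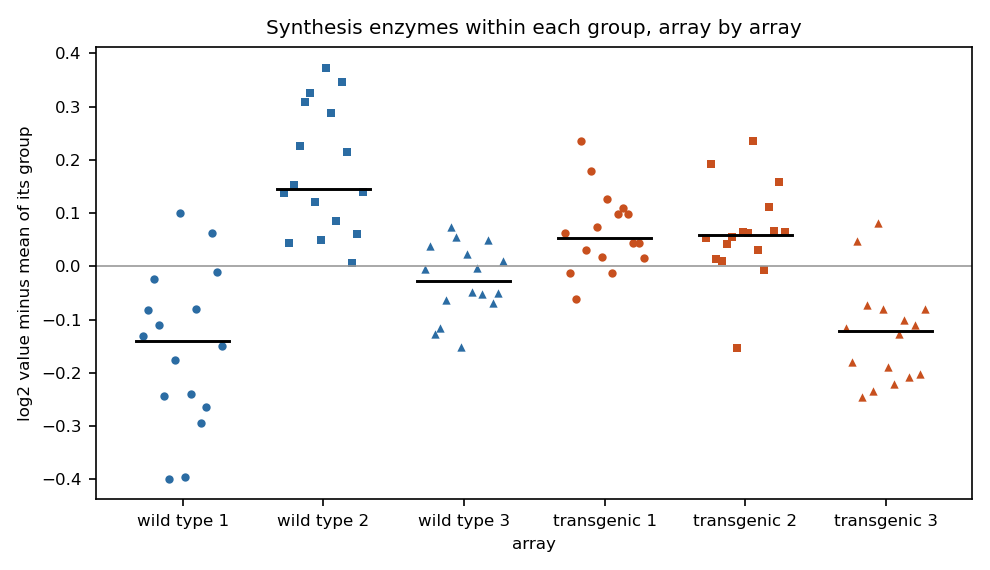
Log2 value of each of the 16 synthesis enzymes minus the mean of its own group (vertical axis) in each array (horizontal axis), 1 point for each enzyme, with the median as a black bar. The medians are -0.14, 0.15 and -0.03 for wild-type replicates 1, 2 and 3 and 0.05, 0.06 and -0.12 for transgenic replicates 1, 2 and 3.

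Further genes of cholesterol handling, listed by role, had more falls than rises on the deposited scale. Of 53 listed, 37 were measured. With scaling to the bacterial RNAs 18 of these 37 rose and 4 fell, while 56.6% of all genes were called higher and 5.25% lower. On the deposited scale 4 rose (10.8%) and 15 fell (40.5%), against the 19.9% and 20.4% of all genes. The median difference on that scale was -0.15. The largest rises were those of Cd36, a scavenger receptor and fatty acid carrier (0.86, adjusted p = 0.000278), Hsd17b7, a sterol ketone reductase of the same route as Nsdhl (0.70, adjusted p = 0.00477), and Rabggtb, which attaches geranylgeranyl groups to Rab proteins (0.41, adjusted p = 0.00384). The largest falls were those of Srebf1, the SREBP gene of fatty acid synthesis, which fell by 1.24 (adjusted p = 0.000124), the endocytic receptor gene Lrp1, which fell by 0.89 (adjusted p = 0.000258), and Abcg8, which exports sterols into bile and fell by 0.89 (adjusted p = 7.79e-05).

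Hsd17b7 read 8.33, 8.73 and 8.45 in wild type and 9.23, 9.39 and 9.001 in transgenic liver, with wild-type replicate 2 and transgenic replicate 3 at the same ends of their groups as for Sqle and Nsdhl. By role, again on the deposited scale, 5 of the 6 measured genes of SREBP and LXR control fell (83.3%) and 0 rose. Of all genes 20.4% fell and 19.9% rose. Each of the 6 had all transgenic arrays below all wild-type arrays, as did 28.1% of all genes. Of 13 genes of uptake, transport and efflux, 5 fell (38.5%) and 1 rose (7.69%). Of the 8 genes of synthesis and precursor supply 2 were higher (25%) and 3 lower (37.5%). Of the 5 of isoprenoid branches 1 was higher and 1 lower, 20% each and near the shares of all genes. Of 5 genes of ester hydrolysis and side chain oxidation 1 fell (20%, also near that share) and 0 rose.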

How the data were processed

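Liver RNA was labelled as biotinylated cRNA for Affymetrix arrays, per the labels' protocols. Affy and RMA are named in the submitters' processing notes without versions, and the deposited values are log2 expression. RMA equalises the arrays' distributions, so a change in RNA per cell cannot be seen. Of 22690 probe sets, 20380 had 1 gene, 691 several and 1555 none, and 64 were controls. Through Entrez identifiers 20351 matched RefSeq, and 0 symbols changed. Each gene was represented by its brightest probe set.

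Groups were compared with lmFit and eBayes of limma 3.58.1 (R 4.3.3), and p-values were adjusted over 12393 genes, or over 20380 probe sets where each was tested on its own. The number of arrays limits the precision, and the fit was tested on simulated data. It recovered 54.7% of made-up changes of 0.5, 83.3% of those of 1 and 100% of those of 2. A gene that did not pass may therefore still differ. The genes, lists, tests and alternatives were chosen with earlier results of these data known. By rule, all 25 measured genes were named, with array values for those called and for the highest and lowest others of a role, and of the further cholesterol genes the 3 largest called changes each way. The array values of Hmgcs1, Idi1, Dhcr7, Vldlr and Hsd17b7, and the second probe sets described, were chosen after their values were seen. Alternatives covered probe set choice, scaling, dim genes, the variance model, a replicate block and each array left out. Figures were drawn with matplotlib 3.10.9 (Python 3.11.15).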

Additional observations from a re-analysis of the deposited data

How the results depend on the processing

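Of 15 alternatives, scaling to the bacterial RNAs changed the counts most. Of the 25 genes 16 were then higher and 4 lower, and of the 37 further cholesterol genes 18 and 4. Over all genes 56.6% were then called higher and 5.25% lower, with the median difference at 0.33. Fdps, Sqle, Npc2, Tm7sf2, Insig2, Scarb1 and Lcat kept their call and direction in all 15, and Ebp and Scap in all but that scaling; the other 4 called genes, Mvd, Lss, Nsdhl and Sc5d, lost theirs in at least 1. Mvd lost it without probe sets of the suffixes s and x (0.58, adjusted p = 0.0568), Lss there and with the mean of probe sets, and Sc5d with that mean. With each array left out, 4 to 9 of the 25 were higher and 6 to 8 lower; the 9 came without wild-type replicate 2 and the 4 without transgenic replicate 2. Leaving out s and x sets also gave 4 higher.

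The sign of 6 genes turned in some alternative. With the bacterial scaling these were Hmgcs1 (0.35), Mvk (0.13), Fdft1 (0.34), Sc5d (0.069) and Stard4 (0.34). Stard4 also turned with the mean of probe sets (0.076) and on its other set (0.19), and Pmvk with median centring (-0.027) and cyclic loess (-0.034). With an array left out, Hmgcs1 ranged from -0.087 to 0.047, Pmvk from -0.020 to 0.12, Fdft1 from -0.11 to 0.019 and Stard4 from -0.19 to 0.10. The cause was not tested. Deviations of same-numbered arrays from their group means had correlations across genes of -0.10, -0.02 and 0.06. Those of differently numbered arrays ranged from -0.14 to 0.12. With 3 arrays per group, these values cannot show whether the numbers pair the samples. With the replicate block 6 of the 25 were higher and 7 lower, as without it, and calls over all genes went from 2467 higher and 2523 lower to 2111 and 2168.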
